A study of Mus musculus with 6 samples.

Results

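The 34 genes described here mark T cells and cytotoxic lymphocytes, and they were chosen by name from the 19949 genes and unnamed entries of the count tables. They are 4 CD3 chains, 3 coreceptors, 3 proximal signalling genes, 4 adhesion or modulating surface proteins, 4 costimulatory or checkpoint receptors and 2 cytokine receptor chains. The other members are 3 lineage transcription factors, 4 granule genes, 3 natural killer receptors and a group of 4 with the chemokine Ccl5, the chemokine receptors Cxcr3 and Cxcr6 and the integrin chain Itgae. Of the 34, 32 had enough counts for the gene test. Eomes and Prf1 did not pass the filter on low counts.

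The series compared colon tissue of STAT6-/- mice with colon tissue of WT mice, 3 libraries a genotype. All animals were BALB/c, were 6 to 8 weeks old and drank 3% dextran sulfate sodium (DSS), which injures the colonic epithelium, for 3 days. Every value is thus from DSS-exposed colon, and colon without DSS was not analysed here. Per the labels the luminal side was scraped before the pieces were taken. The labels do not give the Stat6 allele, and nothing in them says that the 3 libraries of a genotype are different mice. The p-values therefore measure library-to-library spread, which may be technical in part.

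T cells recognise antigen through a receptor whose signal runs through the CD3 chains, the kinases Lck and ZAP-70 and the adaptor LAT. Helper cells carry CD4, and cytotoxic cells carry CD8 and kill with perforin and granzymes, as natural killer cells do. In the gut many of these cells lie between epithelial cells, held there by the integrin CD103 (Itgae), while others sit in the lamina propria and in lymphoid follicles. STAT6 relays interleukin-4 and interleukin-13, which steer helper T cells to the type 2 program.

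Sequence upstream of 5 members is given because the results turn on them: the granzyme genes had the highest folds among the granule genes tested, and the 3 CD3 genes of chromosome 9 did not move together. Gzmb lies at chr14:56258836-56262334 and Gzma at chr13:113093824-113100981, and Cd3g, Cd3d and Cd3e lie side by side at chr9:44969572-44980431, chr9:44981769-44987052 and chr9:44998735-45009663. These are the widest annotated bounds, so the Cd3e and Cd3d windows, which end at an inner start, reach into them. Each run is the 250 bases before the annotated start (RefSeq, GRCm38.p6, read 5′ to 3′ on the gene's strand). Capitals mark matches on either strand to TTCNNNNGAA and TTCNNNGAA, the STAT half-sites with 4 or 3 bases between them, to the ETS motif CAGGAAGT, the RUNX motif TGTGGT and the T-box motif AGGTGTGA.
Gzma, chr13:113100982-113101231, minus strand: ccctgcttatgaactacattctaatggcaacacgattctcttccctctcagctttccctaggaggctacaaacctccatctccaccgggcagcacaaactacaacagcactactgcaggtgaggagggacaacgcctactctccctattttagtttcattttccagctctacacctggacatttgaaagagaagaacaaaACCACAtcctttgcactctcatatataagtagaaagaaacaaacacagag
Gzmb, chr14:56262335-56262584, minus strand: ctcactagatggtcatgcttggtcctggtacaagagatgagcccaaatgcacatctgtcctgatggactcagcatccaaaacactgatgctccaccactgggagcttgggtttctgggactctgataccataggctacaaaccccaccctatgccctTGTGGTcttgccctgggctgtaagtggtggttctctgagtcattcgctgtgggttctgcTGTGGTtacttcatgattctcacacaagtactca
Cd3e, chr9:45009612-45009861, minus strand: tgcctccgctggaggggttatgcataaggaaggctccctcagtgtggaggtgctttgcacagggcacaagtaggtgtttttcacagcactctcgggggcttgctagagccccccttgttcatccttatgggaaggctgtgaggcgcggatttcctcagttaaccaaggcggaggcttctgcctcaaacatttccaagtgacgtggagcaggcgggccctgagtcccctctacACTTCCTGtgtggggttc
Cd3g, chr9:44980432-44980681, minus strand: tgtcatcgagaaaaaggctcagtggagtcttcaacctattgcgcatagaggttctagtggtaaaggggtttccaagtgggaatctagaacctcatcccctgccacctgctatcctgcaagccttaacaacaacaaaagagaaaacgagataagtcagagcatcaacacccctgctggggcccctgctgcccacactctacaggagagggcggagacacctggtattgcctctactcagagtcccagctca
Cd3d, chr9:44981536-44981785, plus strand: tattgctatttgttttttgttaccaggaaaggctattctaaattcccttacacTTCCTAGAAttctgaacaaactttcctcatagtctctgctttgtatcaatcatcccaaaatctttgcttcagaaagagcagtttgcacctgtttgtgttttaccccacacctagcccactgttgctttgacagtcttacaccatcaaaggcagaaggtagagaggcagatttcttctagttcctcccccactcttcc

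The Gzma window held 1 RUNX match, starting 50 bases before the gene, and the Gzmb window held 2, starting 93 and 34 bases before it. The Cd3e window held an ETS match starting 18 bases before the gene, the Cd3d window held a STAT match with 3-base spacing, and the Cd3g window held none of the 5 motifs. In all, 23 members had 28 windows in the table. The ETS motif was in 8 of the 28 member windows and in 2.69% of the 32851 windows of all genes. The RUNX motif was in 11 and in 14.0%, the 3-base STAT motif in 5 and in 7.02%, and the T-box motif in 1, that of Nkg7, and in 1.12%. The 4-base STAT motif, the spacing that STAT6 prefers, was in 0 of the 28 and in 5.85% of all. Matches overlapping one another were counted for each motif, and a match is a description of these letters, not a binding site.

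The libraries held 19224779 to 19555450 expected counts in STAT6-/- and 17122315 to 17433876 in WT. Stat6 itself stood at 49.9, 38.5 and 53.2 CPM (counts relative to library size, TMM-scaled) in the STAT6-/- libraries, against 91.7, 104 and 88.8 CPM in WT (log2 fold change -1.01 ± 0.16 SE, edgeR adjusted p = 0.0134; exact two-sided permutation p = 0.1, the smallest that 3 against 3 can give). Xist stood at 0.264 to 0.992 CPM in STAT6-/- and 352 to 545 CPM in WT, so genotype and sex cannot be told apart here. The Spearman correlation of STAT6-/- replicate 2 was 0.953, 0.944 and 0.929 with WT replicates 1, 2 and 3. It was 0.946 and 0.94 with STAT6-/- replicates 1 and 3, which had 0.953 with one another. STAT6-/- replicates 1 and 3 had lower correlations with the WT libraries, 0.869 to 0.909. The WT libraries had 0.976 to 0.99 with one another. Summed over 8 colon markers the libraries held 3860 to 9250 CPM in STAT6-/- and 7440 to 9720 CPM in WT. Of the 8, 1 fell, Car1, to 0.095 times the WT level (edgeR adjusted p = 0.00732). The 7 small intestine markers summed to 31.1 to 72.6 CPM in STAT6-/- and 11.7 to 14.7 CPM in WT. Of the 7, 3 were tested and 1 rose, Alpi, by 5.2-fold. Over all tested genes 11.4% rose and 11.5% fell. Fabp6 stood at 66.9 CPM in STAT6-/- replicate 3 and Fabp2 at 26.6 CPM in STAT6-/- replicate 1, the largest part of each sum.

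Of the 32 tested members, 7 rose in the STAT6-/- colons and 0 fell (quasi-likelihood test of edgeR, adjusted by Benjamini-Hochberg over 15066 genes, threshold 0.05). That is 21.9% of them higher, where 11.4% of all tested genes were higher and 11.5% lower, 22.9% in all. The 7 were Gzmb, Gzma, Il2rb, Cd3e, Cd2, Tbx21 and Zap70, with adjusted p from 0.0116 to 0.0497, and a further 12 members had an adjusted p from 0.05 to 0.1. Over 18 other settings Gzmb kept its call in 16, Il2rb in 12, Gzma in 10, Zap70 in 8, Cd3e in 7 and Cd2 in 6, and Tbx21 kept it in 6 of the 15 that tested it. At an unadjusted p under 0.05, 21 members were higher and 0 lower. Such a p was found for 6067 of all 15066 genes in either direction (40.3%), and 2974 of these were lower. DESeq2 called 20 of 34 higher and 0 lower (16.5% and 14.4% of all genes). The median log2 fold change of the 32 was 1.94, a 3.83-fold difference, against 0.01 over all tested genes, and 30 of the 32 were above 0, against 50.6% of all genes. In 13 of the 32 every STAT6-/- library lay above every WT library, against 22.0% of all tested genes, and both untested members did so too. In 0 members did every STAT6-/- library lie below every WT library, against 24.5% of all genes. In bulk tissue more cells of a type and more RNA per cell cannot be told apart. The count of 7 rested on single libraries: 26 rose when STAT6-/- replicate 2 was dropped (17.9% of all genes), 1 when STAT6-/- replicate 1 was dropped (6.81%) and 2 when STAT6-/- replicate 3 was dropped (12.5%). Dropping WT replicate 1 gave 2 (4.25%), and dropping WT replicate 2 or WT replicate 3 gave 0 (0.136% and 0.0779%), where 12 members had an unadjusted p under 0.05 in each case. With other fits of all 6 libraries it was 2 with the replicate block (8.09%), 3 with GC and length trends removed (8.3%), 1 with limma-voom (9.6%), 1 with log2(FPKM + 1) (10.4%) and 3 with log2(FPKM + 0.1) (11.2%).

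**Figure D1:**
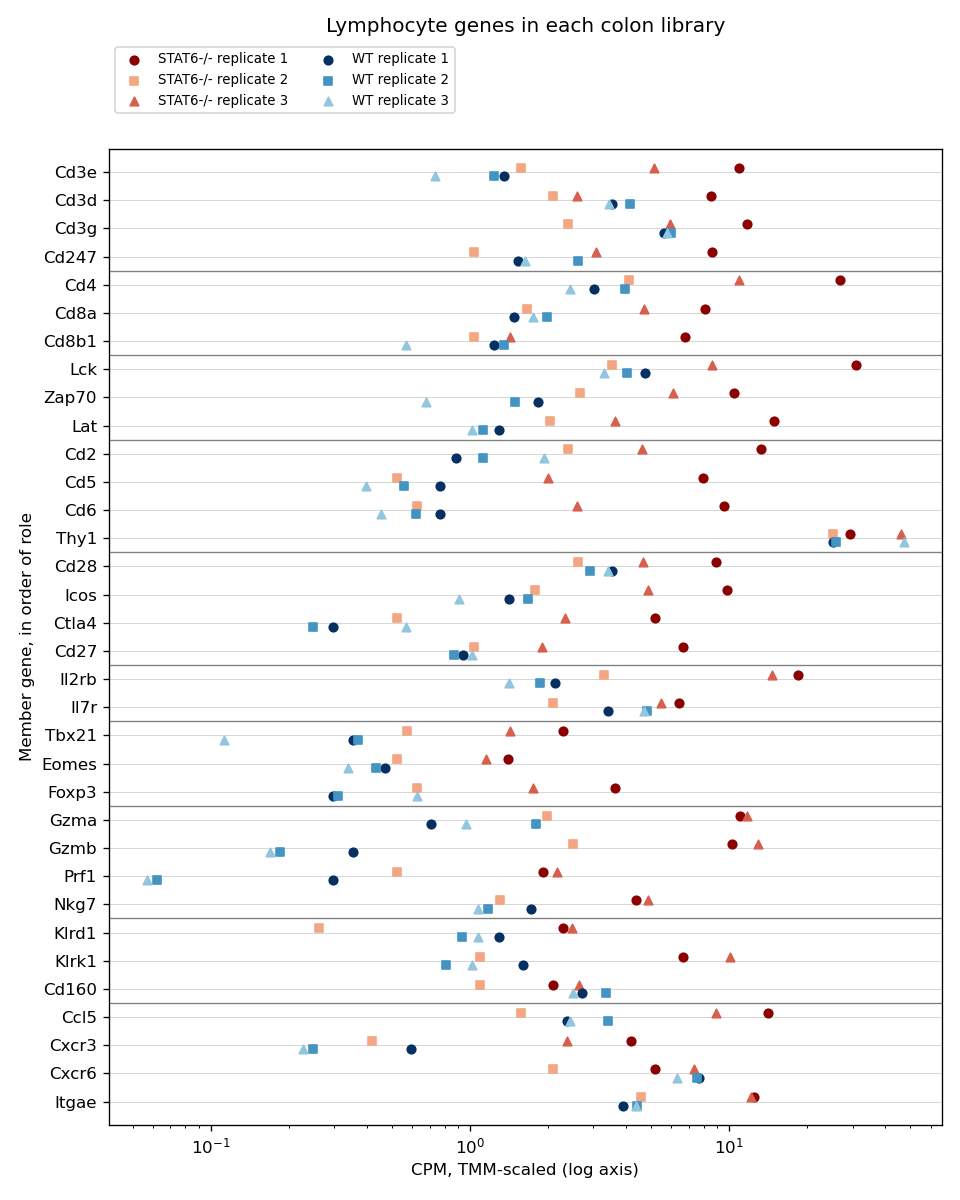
CPM of the 34 member genes in each library, on a log axis, with STAT6-/- libraries in red and drawn above WT libraries in blue; grey lines part the roles. STAT6-/- replicate 1 was the highest STAT6-/- library for 25 genes and replicate 3 for 9, and replicate 2 was the lowest for all 34.

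**Figure D2:**
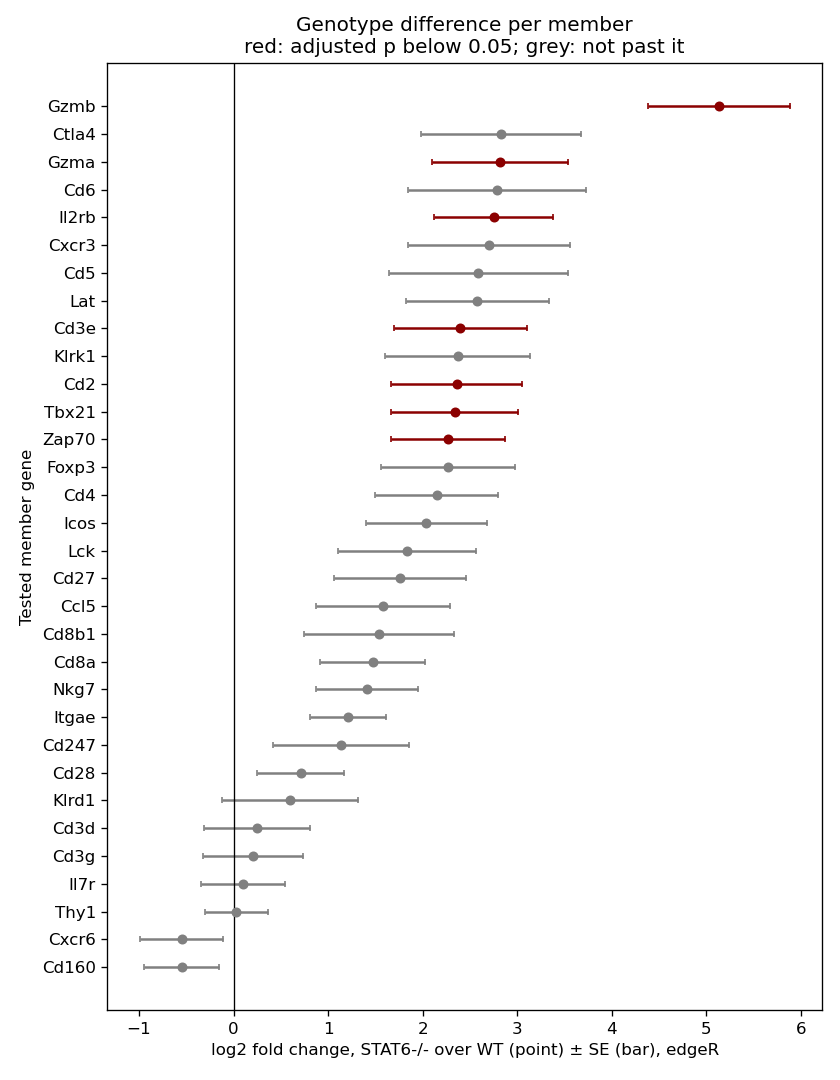
log2 fold change of the 32 tested members, STAT6-/- over WT, with bars of 1 SE from edgeR. The 7 genes in red passed the adjusted p of 0.05, Gzmb stands apart at 5.13, and the lowest values are -0.55 for Cxcr6 and Cd160.

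The 3 STAT6-/- colons differed widely in these genes. Relative to the WT mean, the median member stood at 7.22-fold in STAT6-/- replicate 1, at 1.0-fold in replicate 2 and at 3.36-fold in replicate 3, while the median over all tested genes was 0.971, 0.978 and 0.985. Replicate 1 lay above all WT libraries for 31 of the 34 members and below all of them for 2, where 40.4% and 42.3% of all genes did. Replicate 3 lay above them for 29 and below them for 1, where 40.3% and 41.5% did. The highest STAT6-/- library was replicate 1 for 25 members and replicate 3 for 9, against 29.8% and 34.7% of all genes. Replicate 2 was the lowest STAT6-/- library for 34 of 34 members, against 33.5% of all genes. It lay above all WT libraries for 15 members and below all of them for 10, where 37.7% and 40.3% of all genes did. The coefficient of variation of a member had a median of 73.7% over the STAT6-/- libraries and 25.8% over the WT libraries, against 25.4% and 13.1% over all tested genes.

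The CD3 chains, which carry the signal of the T cell receptor into the cell, did not behave alike. Cd3e stood at 10.9, 1.57 and 5.13 CPM in STAT6-/- replicates 1, 2 and 3, against 1.36, 1.24 and 0.737 CPM in WT. It was higher in all 3 STAT6-/- libraries and rose 5.27-fold (log2 fold change 2.40 ± 0.70 SE, edgeR adjusted p = 0.0497). That call was lost in 11 of 18 other settings, among them upper quartile scaling (adjusted p = 0.0535), and the log2 fold change was 1.62 without STAT6-/- replicate 1 (0.116). Cd3g stood at 11.7, 2.40 and 5.92 CPM in STAT6-/-, against 5.62, 5.96 and 5.79 CPM in WT. Its WT values were nearly equal, and the STAT6-/- values lay on both sides of them (log2 fold change 0.21 ± 0.53, adjusted p = 0.789). Cd3d stood at 8.54, 2.09 and 2.59 CPM in STAT6-/-, against 3.55, 4.16 and 3.46 CPM in WT, with only replicate 1 above WT (0.25 ± 0.56, adjusted p = 0.763). Cd247, the zeta chain, stood at 8.63, 1.04 and 3.07 CPM in STAT6-/-, against 1.54, 2.61 and 1.64 CPM in WT (1.14 ± 0.72, adjusted p = 0.274). The sign of Cd3g and Cd3d turned without STAT6-/- replicate 1, to -0.44 and -0.63.

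The unequal movement shows as a ratio within each library, taken on FPKM, which is scaled to transcript length. Cd3g over Cd3e was 1.52, 2.18 and 1.64 in STAT6-/-, against 5.85, 6.82 and 11.2 in WT. Cd3d over Cd3e was 0.845, 1.46 and 0.542 in STAT6-/-, against 2.84, 3.61 and 5.11 in WT. Both ratios were lower in all 3 STAT6-/- libraries, the one nearest to WT included, with exact two-sided permutation p = 0.1, the smallest possible. Of 13 ratios computed, chosen after the values were seen, 6 did not overlap between the groups. Each of the 6 had a Benjamini-Hochberg adjusted permutation p of 0.217. On the CPM of single genes, 46.5% of all tested genes did not overlap, and no such share was computed for ratios. Cxcr6 over Cd3e was also lower in all 3 STAT6-/- libraries, at 0.358, 1.01 and 1.08, against 4.22, 4.56 and 6.45 in WT. So was Il7r over Cd3e, at 0.257, 0.587 and 0.467 in STAT6-/- and 1.10, 1.71 and 2.81 in WT. Cd3e had 13 to 23 counts in each WT library, which limits the precision of the WT ratios. The ratios over Cd3e share this denominator, so they are not independent of one another.

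**Figure D3:**
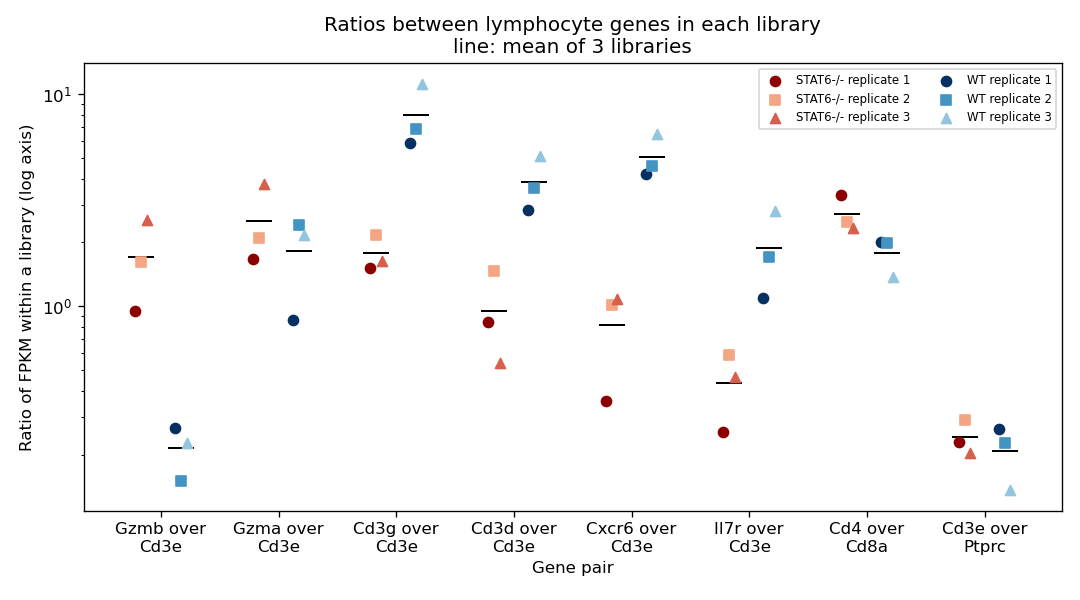
Ratios between lymphocyte genes within each library, as FPKM over FPKM on a log axis, with the 3 STAT6-/- libraries left of the 3 WT libraries and a line at each mean. Gzmb over Cd3e and Cd4 over Cd8a were higher in all STAT6-/- libraries, and Cd3g, Cd3d, Cxcr6 and Il7r over Cd3e were lower in all of them.

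Among the coreceptors, Cd4, carried by helper T cells and by some myeloid cells, stood at 26.8, 4.12 and 10.9 CPM in STAT6-/-, against 3.02, 3.97 and 2.44 CPM in WT. All STAT6-/- libraries lay above WT, replicate 2 by little, and the adjusted p was 0.0539 (4.44-fold). Cd8a, of the CD8 alpha chain, stood at 8.07, 1.67 and 4.71 CPM in STAT6-/-, against 1.48, 1.99 and 1.76 CPM in WT (2.77-fold, adjusted p = 0.0976). Cd8b1, of the beta chain that conventional cytotoxic T cells add, stood at 6.77, 1.04 and 1.43 CPM in STAT6-/-, against 1.24, 1.36 and 0.567 CPM in WT (2.92-fold, adjusted p = 0.184). For both CD8 genes STAT6-/- replicate 2 lay within the WT range. On FPKM, Cd4 over Cd8a was 3.34, 2.49 and 2.34 in STAT6-/-, against 2.02, 1.98 and 1.38 in WT (exact permutation p = 0.1), with no overlap.

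Cd8a also differed in how its counts were divided between 2 RefSeq transcripts. One transcript was given 89.2, 32.0 and 88.9 expected counts in STAT6-/- replicates 1, 2 and 3 and 0 in all 3 WT libraries. The other was given 83.9, 0 and 0 in STAT6-/-, against 25.3, 32.0 and 31.0 in WT. The transcript listed in all STAT6-/- libraries was thus listed in no WT library. Such a division of few reads between transcripts of one gene is an estimate by the authors' quantification, and it was singled out after the values were seen.

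Of the 3 genes that relay the receptor signal, Zap70, the kinase that docks on the CD3 chains, rose. It stood at 10.5, 2.66 and 6.08 CPM in STAT6-/-, against 1.83, 1.49 and 0.681 CPM in WT (4.81-fold, log2 fold change 2.27 ± 0.60, edgeR adjusted p = 0.0380), with no overlap. Lck, the Src-family kinase upstream of ZAP-70, stood at 30.8, 3.55 and 8.62 CPM in STAT6-/-, against 4.73, 4.03 and 3.29 CPM in WT (3.56-fold, adjusted p = 0.109). Lat, the membrane adaptor that ZAP-70 phosphorylates, stood at 14.9, 2.04 and 3.65 CPM in STAT6-/-, against 1.30, 1.12 and 1.02 CPM in WT (5.97-fold, adjusted p = 0.0503). Lck and Lat were both far higher in STAT6-/- replicate 1 than elsewhere, but only Lat parted the groups.

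Among the surface proteins that hold or tune the contact, Cd2, an adhesion receptor, rose. It stood at 13.3, 2.40 and 4.60 CPM in STAT6-/-, against 0.887, 1.12 and 1.93 CPM in WT (5.14-fold, log2 fold change 2.36 ± 0.69, edgeR adjusted p = 0.0487), and its log2 fold change was 1.44 without STAT6-/- replicate 1 (adjusted p = 0.105). Cd5 and Cd6, related receptors that damp T cell signalling, had 6.04-fold and 6.90-fold higher means in the fit, with adjusted p = 0.0872 and 0.0709. Those folds came from replicates 1 and 3. Cd5 stood at 7.93, 0.522 and 2.01 CPM in STAT6-/-, against 0.769, 0.558 and 0.397 CPM in WT. Cd6 stood at 9.57, 0.627 and 2.59 CPM in STAT6-/-, against 0.769, 0.620 and 0.454 CPM in WT, and replicate 2 lay within the WT range for both genes. Thy1, which fibroblasts and neurons share with T cells, was the most abundant member per length in both groups. It stood at 29.3, 25.2 and 46.3 CPM in STAT6-/-, against 25.3, 25.9 and 47.4 CPM in WT (log2 fold change 0.03 ± 0.33, adjusted p = 0.955). Its sign turned with upper quartile scaling (-0.02), and each group had 1 library, replicate 3, far above the others. Col3a1, a fibroblast collagen, was also highest in those libraries, at 963, 374 and 1740 CPM in STAT6-/- and 793, 1760 and 2490 CPM in WT, and its part in the level of Thy1 was not tested.

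None of the 4 costimulatory and checkpoint receptors passed edgeR's test, where 22.9% of all tested genes did. An unadjusted p under 0.05 was found for 3, Ctla4, Icos and Cd27, and for 40.3% of all genes. Icos, a costimulator of activated helper cells, stood at 9.85, 1.78 and 4.87 CPM in STAT6-/-, against 1.42, 1.68 and 0.908 CPM in WT (4.12-fold, adjusted p = 0.0584). Ctla4, the inhibitory counterpart of CD28, stood at 5.18, 0.522 and 2.33 CPM in STAT6-/-, against 0.296, 0.248 and 0.567 CPM in WT (7.10-fold, adjusted p = 0.0532). Icos parted the groups narrowly, whereas Ctla4 in replicate 2 lay within the WT range. Cd27, a TNF receptor family costimulator, stood at 6.67, 1.04 and 1.90 CPM in STAT6-/-, against 0.946, 0.869 and 1.02 CPM in WT (3.38-fold, adjusted p = 0.108). Cd28, the main costimulator of naive T cells, stood at 8.91, 2.61 and 4.65 CPM in STAT6-/-, against 3.55, 2.92 and 3.40 CPM in WT (1.64-fold, adjusted p = 0.282), and its replicate 2 lay below all WT libraries.

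Of the cytokine receptor chains 1 passed the test. Il2rb, the beta chain shared by the receptors of interleukin-2 and interleukin-15, rose: it stood at 18.5, 3.29 and 14.6 CPM in STAT6-/-, against 2.13, 1.86 and 1.42 CPM in WT (6.71-fold, log2 fold change 2.75 ± 0.63, edgeR adjusted p = 0.0263). Replicates 1 and 3 were close to one another and replicate 2 was the nearest to WT, still above it. Il7r, the interleukin-7 receptor chain of naive, memory and innate lymphoid cells, stood at 6.39, 2.09 and 5.45 CPM in STAT6-/-, against 3.43, 4.84 and 4.71 CPM in WT (log2 fold change 0.10 ± 0.44, adjusted p = 0.879). Its groups overlapped, and its sign turned without STAT6-/- replicate 1 (-0.17).

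Of the transcription factors, Tbx21, the T-bet gene of type 1 and cytotoxic lymphocytes, rose. It stood at 2.29, 0.574 and 1.43 CPM in STAT6-/-, against 0.355, 0.372 and 0.113 CPM in WT (5.06-fold, log2 fold change 2.34 ± 0.67, edgeR adjusted p = 0.0464), and WT libraries held only 6, 6 and 2 counts. Its relative Eomes, not tested, stood at 1.40, 0.522 and 1.16 CPM in STAT6-/-, against 0.473, 0.434 and 0.340 CPM in WT. Foxp3, the X-linked factor of regulatory T cells, stood at 3.64, 0.627 and 1.75 CPM in STAT6-/-, against 0.296, 0.310 and 0.624 CPM in WT (4.82-fold, adjusted p = 0.0587). All 3 factors lay above WT in every STAT6-/- library, as 22.0% of all tested genes did. Foxp3 did so by a margin of 0.627 CPM in STAT6-/- replicate 2 against 0.624 CPM in the highest WT library. Per length, Foxp3 over Cd4 was 0.111, 0.129 and 0.136 in STAT6-/-, against 0.0842, 0.0598 and 0.212 in WT, and the groups overlapped (exact permutation p = 1.0).

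The granule genes had the highest median fold of the roles, 7.06 over the 3 tested. Gzmb, a granzyme that activates caspases in target cells, stood at 10.3, 2.51 and 12.9 CPM in STAT6-/-, against 0.355, 0.186 and 0.170 CPM in WT. It rose 35.1-fold (log2 fold change 5.13 ± 0.75, edgeR adjusted p = 0.0116), from 220, 48 and 243 counts in STAT6-/- and 6, 3 and 3 counts in WT. STAT6-/- replicate 2, whose median member was at the WT mean, held 10.6 times the WT mean of Gzmb. Gzmb passed in all 12 other settings that kept the 6 libraries, with a log2 fold change of 2.43 to 5.56, and had an adjusted p of 0.0697 without WT replicate 2 and 0.0728 without WT replicate 3. Gzma, a trypsin-like granzyme, stood at 11, 1.98 and 11.7 CPM in STAT6-/-, against 0.710, 1.80 and 0.964 CPM in WT (7.08-fold, log2 fold change 2.82 ± 0.72, edgeR adjusted p = 0.0345), with replicate 2 barely above the highest WT library. Prf1, of the pore-forming protein perforin, stood at 1.91, 0.522 and 2.17 CPM in STAT6-/-, against 0.296, 0.0620 and 0.0567 CPM in WT, from 5, 1 and 1 WT counts. Nkg7, a granule membrane protein, stood at 4.39, 1.31 and 4.87 CPM in STAT6-/-, against 1.72, 1.18 and 1.08 CPM in WT (2.65-fold, adjusted p = 0.0967). Mast cells also can express Gzmb, and the 10 mast cell markers summed to 115, 47.9 and 48.5 CPM in STAT6-/-, against 39.1, 40.9 and 50.6 CPM in WT. Of the 8 tested, 0 passed the threshold in edgeR, against 22.9% of all tested genes. An unadjusted p under 0.05 was found for 2, against 40.3% of all genes, and 2 passed in DESeq2, against 30.9%. The markers differed among themselves: Hdc stood at 6.30, 1.57 and 7.93 CPM in STAT6-/-, against 2.42, 0.682 and 0.567 CPM in WT, and Tpsb2 at 0.233, 0.992 and 0.688 CPM in STAT6-/-, against 0.887, 2.05 and 4.20 CPM in WT. Their part in the Gzmb difference was not tested.

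The natural killer receptors overlapped between the groups, where 46.5% of all tested genes did not. Klrk1, of the activating receptor NKG2D, stood at 6.63, 1.10 and 10.1 CPM in STAT6-/-, against 1.60, 0.807 and 1.02 CPM in WT (5.16-fold, adjusted p = 0.0642). Klrd1, of CD94, stood at 2.29, 0.261 and 2.49 CPM in STAT6-/-, against 1.30, 0.931 and 1.08 CPM in WT (1.52-fold, adjusted p = 0.559). Cd160, a receptor of intraepithelial and natural killer lymphocytes, stood at 2.10, 1.10 and 2.64 CPM in STAT6-/-, against 2.72, 3.35 and 2.5 CPM in WT (log2 fold change -0.55 ± 0.40, adjusted p = 0.335). Klrk1 and Klrd1 were high in STAT6-/- replicates 1 and 3, whereas Cd160 lay below all WT libraries in replicates 1 and 2.

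Of the trafficking genes, Ccl5, a chemokine that effector T cells and natural killer cells secrete, stood at 14.1, 1.57 and 8.94 CPM in STAT6-/-, against 2.37, 3.41 and 2.44 CPM in WT (3.00-fold, adjusted p = 0.139). Cxcr3, the X-linked receptor of interferon-induced chemokines, stood at 4.20, 0.418 and 2.38 CPM in STAT6-/-, against 0.591, 0.248 and 0.227 CPM in WT (6.48-fold, adjusted p = 0.0622). In both genes replicates 1 and 3 lay above WT and replicate 2 did not. Itgae stood at 12.5, 4.59 and 12.2 CPM in STAT6-/-, against 3.90, 4.41 and 4.37 CPM in WT (2.31-fold, adjusted p = 0.0689), with a narrow gap between the groups. Cxcr6, the receptor of Cxcl16 on resident lymphocytes, stood at 5.18, 2.09 and 7.35 CPM in STAT6-/-, against 7.63, 7.51 and 6.30 CPM in WT (log2 fold change -0.55 ± 0.44, adjusted p = 0.383), with replicate 2 the lowest of all 6 libraries.

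The levels also changed order between the groups. On mean FPKM in WT the members ran from Thy1 at 18.6 ± 8.03 through Cd3g at 5.62 ± 0.249, Ccl5 at 4.81 ± 0.773, Cxcr6 at 3.68 ± 0.276 and Cd3d at 2.76 ± 0.117 down to Foxp3 and Tbx21 at 0.107 and Prf1 at 0.0667 (SD, n = 3). In STAT6-/- the order ran from Thy1 at 19.4 ± 5.76 through Ccl5 at 15.5 ± 12.6, Gzma at 9.84 ± 6.54, Lck at 7.16 ± 7.62, Cd3g at 6.95 ± 5.31, Cd2 at 6.33 ± 5.77 and Gzmb at 6.20 ± 3.86. Neighbours in the STAT6-/- order did not differ beyond their spread, and in WT Cd3g and Ccl5 overlapped in range while Thy1 lay above all others. Gzmb was among the 5 lowest members in WT, at 0.163 ± 0.0751 FPKM.

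STAT6-/- replicates 1 and 3 differed in the balance of these genes. All values here are CPM ratios of replicate 3 over replicate 1 with 95% intervals for counting error (exact Clopper-Pearson), so they compare 2 libraries, not conditions. The CD3 chains had ratios from 0.303 to 0.506, and Lat, Lck and Cd8b1 had 0.245 (0.186 to 0.319), 0.280 (0.235 to 0.333) and 0.211 (0.134 to 0.320). The granule genes stood at or above 1: Gzma at 1.07 (0.883 to 1.29), Gzmb at 1.25 (1.04 to 1.51), Prf1 at 1.13 (0.717 to 1.79) and Nkg7 at 1.11 (0.823 to 1.49). The natural killer receptors ran from 1.09 for Klrd1 to 1.52 (1.21 to 1.90) for Klrk1, and Itgae stood at 0.973 (0.812 to 1.16). Ratios above 1 were not limited to these roles, as Thy1 stood at 1.58 (1.43 to 1.76) and Cxcr6 at 1.42 (1.10 to 1.84). Replicate 3 thus held less of the CD3 and proximal signalling genes than replicate 1. Of the member granule genes it held as much or more, with only the Gzmb interval wholly above 1.

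**Figure D4:**
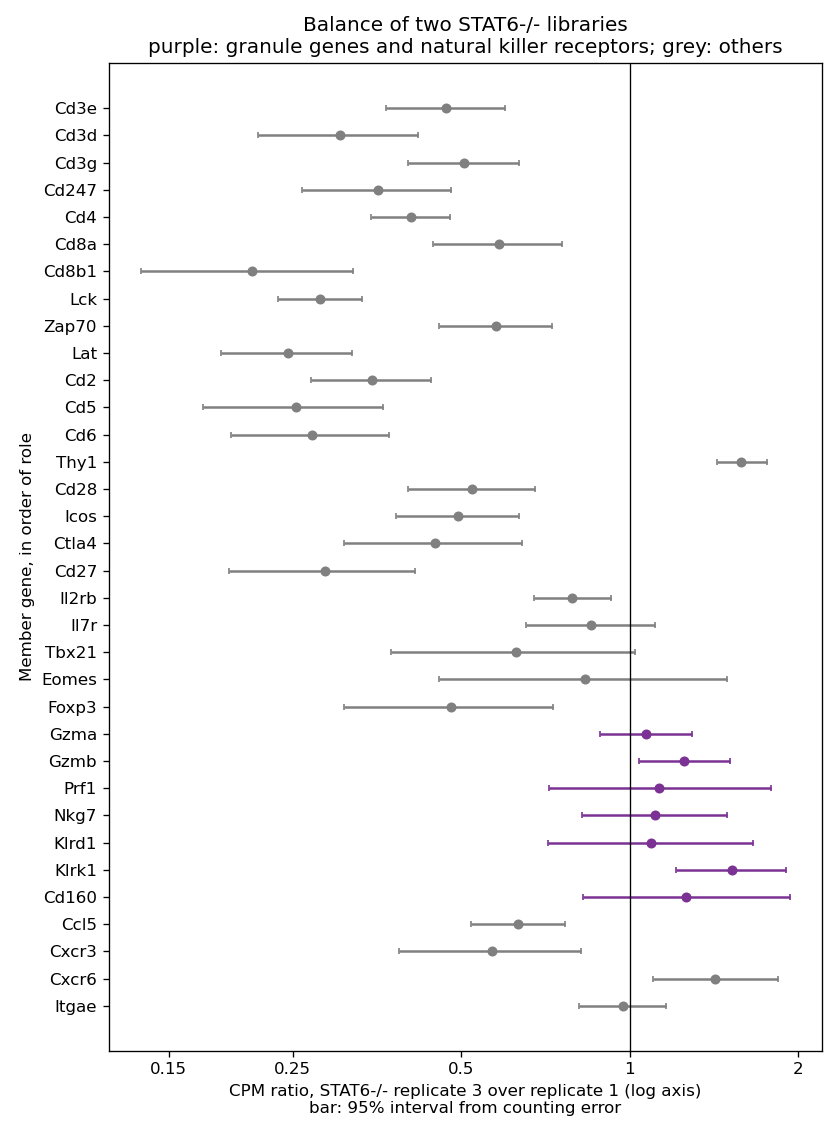
CPM ratio of STAT6-/- replicate 3 over STAT6-/- replicate 1 for each member, on a log axis, with 95% counting intervals. Granule genes and natural killer receptors, in purple, run from 1.07 to 1.52, and the CD3 chains from 0.303 to 0.506. Thy1, at 1.58, and Cxcr6, at 1.42, also lie above 1.

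Of 28 other genes of T cell receptor signalling 26 were tested, 4 rose and 0 fell, with a median log2 fold change of 0.98. That is 15.4% higher, against 11.4% of all tested genes. Among them Sh2d2a, an adaptor of activated T cells, rose 5.27-fold, Ptpn22, a phosphatase that restrains the receptor, 4.43-fold and Vav1, a blood cell exchange factor, 2.57-fold (edgeR adjusted p = 0.0362, 0.0328 and 0.0322). Nfatc3, with the highest CPM of the list averaged over the 6 libraries, stood at 73.2, 76.4 and 78.8 CPM in STAT6-/-, against 83.6, 86.1 and 79.7 CPM in WT (adjusted p = 0.456). Of 14 checkpoint and activation receptors 11 were tested and 1 rose, the inhibitory receptor Lag3, by 4.94-fold (adjusted p = 0.0481), with a median log2 fold change of 1.31 and a share of 9.09% below that of all genes. In that list Ccr7, a homing receptor of naive lymphocytes, stood at 27.1, 1.88 and 5.34 CPM in STAT6-/-, against 1.06, 2.17 and 2.33 CPM in WT (adjusted p = 0.0851).

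Of 27 other cytotoxic and natural killer genes 20 were tested, 2 rose and 1 fell, with a median log2 fold change of 0.73. Both shares were below those of all genes (11.4% and 11.5%). Tnfsf10, the death ligand TRAIL that epithelium also expresses, stood at 148, 53.8 and 55.8 CPM in STAT6-/-, against 10.9, 20.8 and 8.28 CPM in WT (6.45-fold, adjusted p = 0.0184). Il12rb1, a chain of the interleukin-12 receptor, rose 4.67-fold (adjusted p = 0.0347). Hcst, the DAP10 adaptor through which NKG2D signals, fell to 2.05, 3.34 and 2.75 CPM in STAT6-/-, against 5.74, 8.87 and 7.32 CPM in WT (log2 fold change -1.43 ± 0.32, adjusted p = 0.0242). Hcst was thus lower in all 3 libraries, while the NKG2D gene Klrk1 lay above WT in replicates 1 and 3. Ifng, singled out after its values were seen and not tested, was given 62, 0 and 17 counts in STAT6-/- and was listed at 0 in all 3 WT libraries.

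Ligands and cytokines that act on these cells went both ways. Of 22 genes 12 were tested, 1 rose and 3 fell, which is 8.33% and 25%, against 11.4% and 11.5% of all genes, with a median log2 fold change of 0.54. Il15, the cytokine that sustains intraepithelial and natural killer cells through Il2rb, stood at 4.57, 8.20 and 3.76 CPM in STAT6-/-, against 21.4, 21.4 and 24.9 CPM in WT (log2 fold change -2.03 ± 0.32, edgeR adjusted p = 0.0125). Il7, the ligand of Il7r, stood at 3.92, 8.98 and 8.57 CPM in STAT6-/-, against 15.9, 20.2 and 18.7 CPM in WT (-1.35 ± 0.34, adjusted p = 0.0313). Both cytokine genes fell, without overlap, where 24.5% of all tested genes had every STAT6-/- library below every WT library. Ulbp1, a ligand of NKG2D, fell to 1.73, 1.31 and 1.75 CPM in STAT6-/-, against 7.27, 6.08 and 7.37 CPM in WT (-2.11 ± 0.29, adjusted p = 0.0102). Cd274, the checkpoint ligand PD-L1, rose 3.80-fold (adjusted p = 0.0409), and Il18, with the highest CPM of the list averaged over the 6 libraries, stood at 133, 189 and 46.7 CPM in STAT6-/-, against 245, 255 and 219 CPM in WT (adjusted p = 0.154). All 3 that fell were below WT in replicate 2 as well, where the median member was at the WT mean.

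Of 19 gut homing and retention genes, all tested, 4 rose and 0 fell, with a median log2 fold change of 1.36. That is 21.1% higher, against 11.4% of all genes. Itgb7, the chain that pairs with Itgae and with Itga4, stood at 34.6, 12.7 and 30.8 CPM in STAT6-/-, against 6.33, 5.15 and 5.96 CPM in WT (4.48-fold, adjusted p = 0.0156). Itgal, the LFA-1 chain of leukocytes, rose 7.61-fold, Gpr15, a colon homing receptor, 4.93-fold and Itga4 2.41-fold. Itgb7 was above WT in replicate 2 too. Cdh1, the E-cadherin that binds CD103, stood at 1040, 1280 and 1720 CPM in STAT6-/-, against 836, 975 and 735 CPM in WT (adjusted p = 0.0943).

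Of 21 helper and innate lymphoid genes 14 were tested, 4 rose and 2 fell, which is 28.6% and 14.3%, against 11.4% and 11.5% of all genes, with a median log2 fold change of 0.68. Gata3, the factor of type 2 helper and innate lymphoid cells, stood at 8.40, 5.53 and 10.4 CPM in STAT6-/-, against 1.42, 1.68 and 0.851 CPM in WT (6.14-fold, adjusted p = 0.0118). Il1rl1, of the interleukin-33 receptor, rose 7.43-fold, and Il13 rose to 1.68, 2.40 and 0.582 CPM in STAT6-/-, against 0.0591, 0.0620 and 0 CPM in WT (adjusted p = 0.0151). Runx3, a factor of cytotoxic lymphocytes, rose 4.42-fold (adjusted p = 0.0457). Runx3 and Rora complete the 6 and were singled out after their values were seen. Id2 and Rora, factors of innate lymphoid cells that other cells also express, stood at 23.1, 24.7 and 23.6 CPM and at 8.07, 5.53 and 10.5 CPM in STAT6-/-, against 35.7, 46.3 and 46.6 CPM and 14.0, 21.5 and 22.3 CPM in WT, and both fell (adjusted p = 0.0162 and 0.0301). Zbtb7b, with the highest CPM of the list averaged over the 6 libraries, stood at 230, 291 and 270 CPM in STAT6-/-, against 203, 222 and 181 CPM in WT (adjusted p = 0.134). Over these 6 lists 16 of 102 tested genes rose and 6 fell, which is 15.7% and 5.88%, against 11.4% and 11.5% of all tested genes. Dropping STAT6-/- replicate 2 gave 58 and 11 (all genes 17.9% and 15.9%), dropping STAT6-/- replicate 1 gave 6 and 4 (6.81% and 4.94%) and dropping STAT6-/- replicate 3 gave 7 and 6 (12.5% and 10.1%). Dropping WT replicate 1 gave 4 and 6 (4.25% and 4.87%). Dropping WT replicate 2 gave 0 and 0 (0.136% and 0.0645%), with 29 higher and 8 lower at an unadjusted p under 0.05, and dropping WT replicate 3 gave 0 and 0 (0.0779% and 0.039%), with 26 and 7. DESeq2 called 42 higher and 9 lower on all 6 libraries (16.5% and 14.4%).

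Of the markers of other leukocytes, 2 of 10 pan-leukocyte genes and 3 of 12 macrophage, monocyte and dendritic markers rose. That is 20% and 25%, against 11.4% of all tested genes. Of 10 B cell markers 0 rose. In the 3 lists 0 genes fell, against 11.5% of all tested genes. Ptprc, the CD45 gene of all leukocytes, stood at 183, 19.8 and 95.5 CPM in STAT6-/-, against 19.3, 20.2 and 20.1 CPM in WT (5.0-fold, edgeR adjusted p = 0.0505), the same order of STAT6-/- libraries as most members had. The 10 pan-leukocyte genes summed to 1230, 205 and 646 CPM in STAT6-/-, against 224, 228 and 203 CPM in WT, and the 2 that rose were Laptm5 and Coro1a. The 10 B cell markers summed to 448, 32.6 and 76.6 CPM in STAT6-/-, against 58.8, 67.1 and 43.3 CPM in WT, with STAT6-/- replicate 1 far above the others. Of these 10, 3 had an unadjusted p under 0.05 in edgeR and 4 passed in DESeq2, where 40.3% and 30.9% of all genes did in either direction. The 12 macrophage, monocyte and dendritic markers summed to 1330, 467 and 1070 CPM in STAT6-/-, against 354, 541 and 551 CPM in WT, and the 3 that rose were Cd14, Itgax and Flt3. Cd14 stood at 287, 236 and 271 CPM in STAT6-/-, against 73.0, 67.4 and 42.4 CPM in WT. It was thus a large part of the replicate 2 sum and did not follow the order of Ptprc closely. No marker of these 3 lists was at 0 in any library. The part of these cells in the members' differences was not tested. Ratios to Ptprc, which all leukocytes express, cannot tell T cells from the other leukocytes.

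Set against Ptprc in the same library, a comparison added after the values were seen, 23 of the 34 members overlapped between the groups. The ratio of member CPM to Ptprc CPM was above all WT libraries in all STAT6-/- libraries for 1 of the 34, Gzmb, where 0.564% of all tested genes were. It was below all WT libraries for 10, Cd3d, Cd3g, Cd247, Thy1, Cd28, Il7r, Klrd1, Cd160, Ccl5 and Cxcr6, where 39.7% of all genes were. Gzmb over Ptprc was 0.0561, 0.126 and 0.135 in STAT6-/-, against 0.0183, 0.00923 and 0.00845 in WT. Cd3e over Ptprc was 0.0597, 0.0789 and 0.0537 in STAT6-/-, against 0.0703, 0.0615 and 0.0366 in WT, and the groups overlapped. Per length, Gzmb over Cd3e was 0.952, 1.62 and 2.54 in STAT6-/-, against 0.266, 0.15 and 0.226 in WT (exact permutation p = 0.1).

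**Figure D5:**
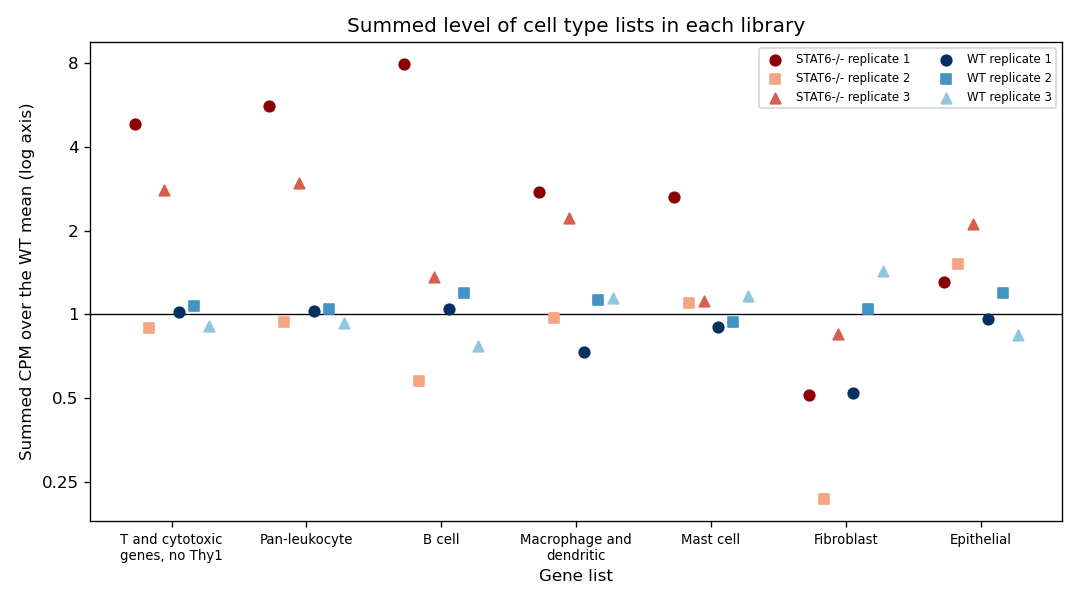
Summed CPM of 7 gene lists in each library, divided by the WT mean of that list, on a log axis, with STAT6-/- libraries left of WT libraries. The members without Thy1 summed to 306, 56.2 and 177 CPM in STAT6-/- and 57.5 to 67.6 CPM in WT. Among the STAT6-/- libraries the pan-leukocyte sums were also highest in replicate 1 and lowest in replicate 2.

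The 8 epithelial markers summed to 13900, 16200 and 22600 CPM in STAT6-/-, against 10300, 12700 and 9000 CPM in WT, and 2 of them rose, Vil1 and Krt20. The 8 fibroblast markers summed to 2220, 940 and 3680 CPM in STAT6-/-, against 2270, 4540 and 6210 CPM in WT, and 1 of them, Lum, fell to 0.228 times the WT level. The 9 nerve and glia markers summed to 48.5, 23.4 and 71.8 CPM in STAT6-/-, against 31.9, 36.1 and 33.9 CPM in WT, and 1, S100b, fell. Beside these counts, 11.4% of all tested genes rose and 11.5% fell. STAT6-/- replicate 2 thus had the lowest leukocyte, fibroblast and nerve sums of the STAT6-/- libraries, and the part of these sums in the members' values was not tested.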

How the data were processed

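RNA-seq of colon from 3 STAT6-/- and 3 WT libraries was analysed from the deposited tables. Per the submitters' processing notes the tools were Bowtie2 2.2.5 and RSEM 1.2.12, with the mouse build mm10; the roles and options of the tools are not given in the sources used here. The deposited values are expected counts and FPKM (scaled to transcript length and library) per RefSeq transcript, per the file headers. No listed FPKM is below 0.01, and a transcript that a table does not list was taken as 0. RSEM divides reads between transcripts, so values of near-identical genes (granzymes, killer receptors) are uncertain where reads fit several.

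The 28238 transcripts were mapped to genes with a RefSeq table (27986) and a GENCODE M21 annotation (149). The 103 unnamed ones, 0.097 to 0.249% of the counts, were kept as entries of their own. Those that passed the filter on low counts are included among the genes tested. Expected counts were summed per gene and rounded. The main test was edgeR 4.0.16 (R 4.3.3), quasi-likelihood with TMM factors, its filter on low counts and Benjamini-Hochberg adjustment over 15066 genes. A count of 3 corresponds to 0.153 to 0.175 CPM, and intervals cover counting error only. Limma 3.58.1 on log2(FPKM + 1) and log2(FPKM + 0.1), limma-voom and DESeq2 1.42.0 were alternatives; those log2 scales understate changes of low genes. Removing GC and length trends was added after seeing the data. Scripts were tested on simulated data. Figures used matplotlib 3.10.9.

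All members are named. Of each other list, the tested gene with the highest mean CPM and up to 4 with the lowest p could be named, and some genes that this selects are not reported here. The members and lists were chosen with earlier results of these data known.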

Additional observations from a re-analysis of the deposited data

How the results depend on the processing

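The median log2 fold change of the tested members kept its sign in every setting, from 0.85 with log2(FPKM + 1) to 2.41 without STAT6-/- replicate 2, and 0 members were called lower in any. The count of 7 members called higher was 2 with the replicate block, 3 with GC and length trends removed, 1 with limma-voom, 1 with log2(FPKM + 1), 3 with log2(FPKM + 0.1) and 20 with DESeq2, and ran from 0 to 26 when 1 library was left out. Over all genes, 1718 were higher (2697 with DESeq2; 12 to 2750 with 1 library left out) and 1731 lower (1045 with GC and length trends removed; 6 to 2440 with 1 library left out). Stat6 ran from -1.06 to -0.85 with 1 library left out, and missed the threshold without WT replicate 2 (adjusted p = 0.0725) or 3 (0.0721). With the mean of each group removed, same-numbered libraries of the 2 genotypes had correlations of 0.023, 0.0445 and 0.134. Differently numbered ones had -0.109 to 0.0544. So few values cannot decide whether the replicate numbers pair the samples. The block left 1219 genes higher and 1445 lower. A total of 4 members turned sign, none past the threshold. With 1 library left out, Cd3d reached 0.62, Cd3g 0.64, Thy1 0.38 and Il7r 0.48 at most. Cd3d was -0.04 with the block, -0.63 without STAT6-/- replicate 1 and -0.02 with limma-voom. Cd3g was -0.05, -0.44 and -0.04 under the same settings and -0.0044 with log2(FPKM + 0.1). Thy1 was -0.02 with upper quartile scaling, -0.07 with GC and length trends removed, and -0.23, -0.13 and -0.12 without STAT6-/- replicate 3, WT replicate 1 and WT replicate 2. Il7r was -0.01 with the block, -0.17 without STAT6-/- replicate 1, -0.05 without WT replicate 1 and -0.02 with limma-voom. Over all member values and settings, 462 kept their direction and side of the threshold, 32 passed it, 58 lost it and 16 turned sign, and the cause was not tested. With 2 libraries left in a group the fit had few residual degrees of freedom. Few counts limit the precision of members such as Tbx21, Eomes, Prf1 and Gzmb, whose WT libraries held 1 to 8 counts.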
